A study of Mus musculus with 4 samples.

Results

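The extracellular matrix genes described here are 43 genes for collagens, laminins, elastic fibre proteins, adhesive glycoproteins, small leucine-rich proteoglycans and the enzymes and inhibitors that build or cut the matrix. They were taken as a list of names, which was chosen with earlier results of these data known, so that counts among them are descriptive. The value given for a gene is the mean log2 array value of those of its probe sets, each a group of probes for a stretch of an exon, that carry only its name and whose second-highest value over the 4 arrays was 5.04 or more. By this rule 41 of the 43 were measured, among 18762 genes in all, with 1 to 72 probe sets a gene (a median of 19). *Lum*, the gene of the keratan sulphate proteoglycan lumican, was dim, as its 5 probe sets had medians of 1.93 and 1.53 on the SOX7::GFP high arrays and 2.20 and 2.02 on the SOX7::GFP low arrays. *Lox*, which encodes the founding lysyl oxidase, had no singly named probe set in the annotation used here.

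RNA came from 2 subpopulations of iSox7 bone marrow cells, SOX7::GFP high (2 arrays) and SOX7::GFP low (2 arrays), hybridized to Affymetrix mouse exon arrays. All 4 samples shared the iSox7 transgene, by which doxycycline switches on SOX7 together with GFP. All had been passaged 10 to 12 times on irradiated OP9, a mouse bone marrow stromal line, with Kit ligand, interleukin 7 and FLT3 ligand, before the sort by SOX7::GFP and cKIT level. The sample labels also name an embryonic stem cell derivative, Ainv18, and the design text contrasts presence and absence of doxycycline, whereas the arrays were grouped by the labelled SOX7 level. Neither the ages of the mice nor the number pooled per array is given in the sources used here. The study calls the arrays of a group biological duplicates, while the labels do not say whether these came from separate cultures or mice, and the spread behind each p-value is that between these arrays.

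The matrix is the mesh of secreted proteins around cells. Fibrillar collagens form its cables, collagen VI, elastin and fibrillins its finer fibres, and laminins, collagen IV, nidogen and the collagens XV and XVIII the thin basement membrane sheet under endothelium and epithelium. In marrow most of it is made by stromal, bone-lining and vascular cells, while blood cells make part of it, such as the fibronectin of macrophages and the SPARC and thrombospondin of megakaryocytes.

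The gene *Sox7* had log2 values of 9.52 and 9.63 on the SOX7::GFP high arrays and 9.07 and 8.90 on the SOX7::GFP low arrays, in the order of the labels, although its log2 fold change of 0.59 did not pass (limma adjusted p = 0.0859). The mean of 8 pan-blood genes, such as the CD45 gene *Ptprc*, lay between 9.79 and 9.98 on all arrays, and that of 9 reference genes between 9.73 and 9.75. Over all genes the mean was 6.84 on both SOX7::GFP high arrays and 6.84 and 6.75 on SOX7::GFP low replicates 1 and 2. The lowest of these belonged to SOX7::GFP low replicate 2, which gave the lowest of the 4 values for 37.1% of all genes and for 32 of the 41 matrix genes.

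Of the 41 measured matrix genes 6 were higher and 0 lower in SOX7::GFP high than in SOX7::GFP low cells, at a Benjamini-Hochberg adjusted p under 0.05 over all genes from limma and a change of at least 2-fold (n = 2 arrays a group throughout). Among all genes 3.61% were called higher and 3.24% lower by the same rule. The 6 genes were *Lama4*, *Col4a1*, *Col4a2* and *Col18a1* of the basement membrane, the fibrillin gene *Fbn1* and the membrane protease gene *Mmp14*. At an unadjusted limma p under 0.05 the counts were 7 higher and 0 lower, with *Col8a1* as the 7th gene. Among all 18762 genes 2647 were higher and 1839 lower at that level. As a median the log2 fold change came to 0.09 for the 41 genes and 0.05 for all genes. As probe sets had to be bright on only 2 arrays, a gene bright in 1 group could enter through that group alone, and the count of 6 is to be read with this. With 1 array left out limma called 0 of the 41 without SOX7::GFP high replicate 1 and 1 (*Lama4*) without SOX7::GFP high replicate 2. It called 2 (*Col4a1* and *Mmp14*) when SOX7::GFP low replicate 1 was the array left out, and 1 (*Col4a1*) when it was SOX7::GFP low replicate 2. The called genes among all genes fell in the same fits, to between 145 and 406 higher, against 678 with all arrays. In bulk RNA more cells of a type and more RNA per cell cannot be told apart.

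**Figure D1:**
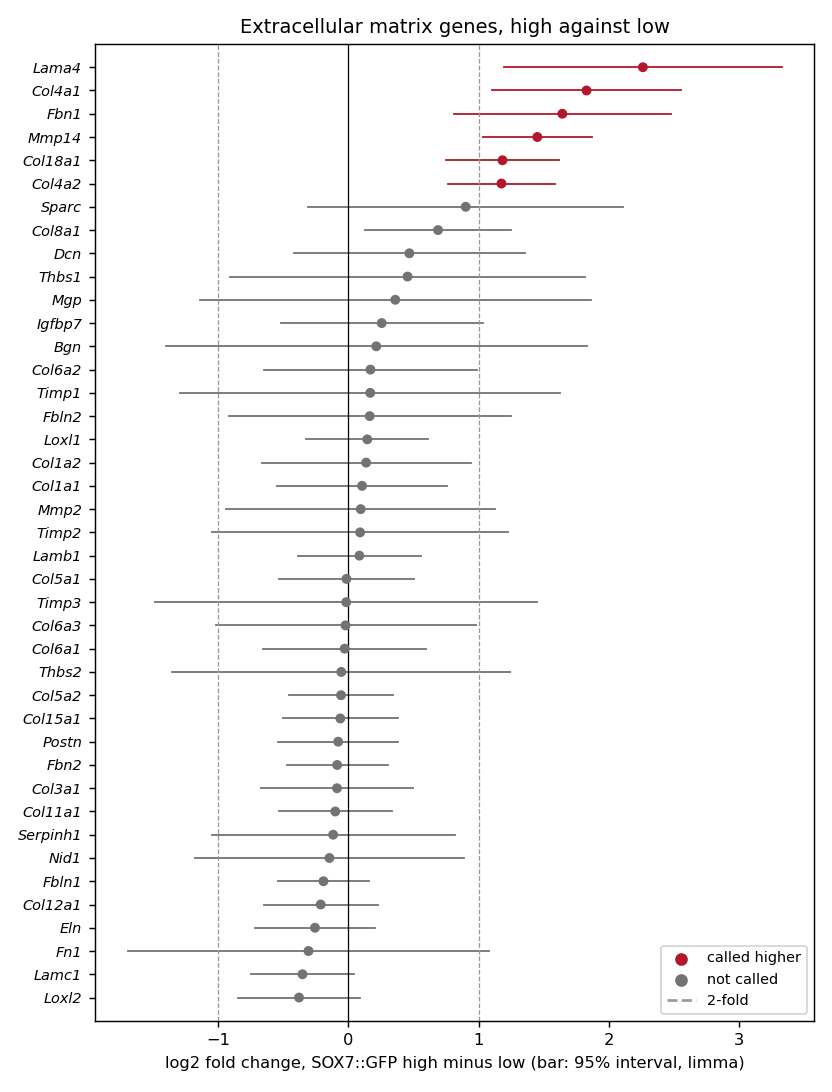
Log2 fold change (SOX7::GFP high minus low) of the 41 measured matrix genes, ordered by size, with 95% intervals from limma (n = 2 arrays a group) and dashed lines at 2-fold. The 6 called genes lie between 1.18 and 2.26, and the other 35 between -0.38 and 0.90.

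Type IV collagen, the network-forming collagen of every basement membrane, is built chiefly of the chains encoded by *Col4a1* and *Col4a2*. These genes lie head to head on chromosome 8. Their annotated starts in the RefSeq promoter table (GRCm38.p6) are 21 bases apart, at 11312826 on the minus strand for *Col4a1* and 11312805 on the plus strand for *Col4a2*. The windows from 250 bases before to 50 bases after each start thus share 78 bases. The 250 bases before each start, which alone were searched for motifs, do not overlap between these genes. Because both genes were called, the stretches of 30 bases that hold a CCAAT box, a common promoter element, are shown for them and for the other called genes that have one in the 250 bases before the start. Capitals mark the box, read as CCAAT or, on the other strand, as ATTGG, and each line runs 5′ to 3′ on the strand of its gene.
Col4a1, chr8:11312954-11312983, minus strand: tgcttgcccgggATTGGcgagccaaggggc
Col4a2, chr8:11312761-11312790, plus strand: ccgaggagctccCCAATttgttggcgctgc
Col18a1, chr10:77166723-77166752, minus strand: cgcgttggagacATTGGagagaggacgaga
Mmp14, chr14:54431517-54431546, plus strand: tctcctgctgtaATTGGattcgagctgaaa
Mmp14, chr14:54431563-54431592, plus strand: aaaaaggagggcATTGGggcgggggcggag
The box of *Col4a2* starts 32 bases before the start of that gene, and those of *Mmp14* 69 and 23 bases before. The box of *Fbn1* was absent from its window, and *Lama4* was not in the table. A CCAAT box stood in 11 of the 31 windows of measured members (27 genes), which is 35.5%, and in 33.8% of all 32851 windows. A SOX core, searched on both strands as the letters ACAATG or else ACAAAG or else TCAATG or else TCAAAG, the last of which overlaps the core read by TCF/LEF factors, stood in 0 windows of the called genes, in 7 of the 31 windows of members (22.6%) and in 39.4% of all windows. A GC box, searched on both strands as GGGCGG, stood in 20 of the 31 windows of members (64.5%) and in 32.7% of all windows. The called genes had few windows, namely 2 for *Col18a1*, 1 each for *Col4a1*, *Col4a2*, *Fbn1* and *Mmp14*, and 0 for *Lama4*. Their count of 0 is therefore too small a sample to set against the share of all windows. Such matches describe letters only.

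*Col4a1* was expressed at 7.10 and 7.26 in SOX7::GFP high cells, against 5.72 and 4.98 in SOX7::GFP low cells. Both SOX7::GFP high arrays lay over 1 log2 unit above the higher SOX7::GFP low array, and SOX7::GFP low replicate 2 fell under the filter value of 5.04. The log2 fold change was 1.83 (SE 0.28, limma adjusted p = 0.0264), or 3.56-fold. *Col4a2* was expressed at 6.49 and 6.63 in SOX7::GFP high cells, against 5.50 and 5.27 in SOX7::GFP low cells, a rise of 1.18 on the log2 scale (SE 0.16, limma adjusted p = 0.0193). The groups did not overlap for either chain. Of the 57 probe sets kept for *Col4a1* 51 were higher in SOX7::GFP high cells, 46 of them with no overlap between groups, and their differences had a median of 2.15 and an interquartile range of 0.61 to 2.78. Of the 46 of *Col4a2* 41 were higher, 34 of them with no overlap, against 30.3% of the probe sets kept for all genes. Restricted to probe sets at 5.04 or more on all 4 arrays (29 and 26), the log2 fold changes were 0.91 for *Col4a1* and 0.80 for *Col4a2*, under 2-fold for both, with adjusted p = 0.0361 and 0.0317 from limma. *Col4a2* was not called with a filter on the mean of the 4 arrays (0.99) or with the median of its probe sets (0.92), in both cases through the 2-fold limit.

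**Figure D2:**
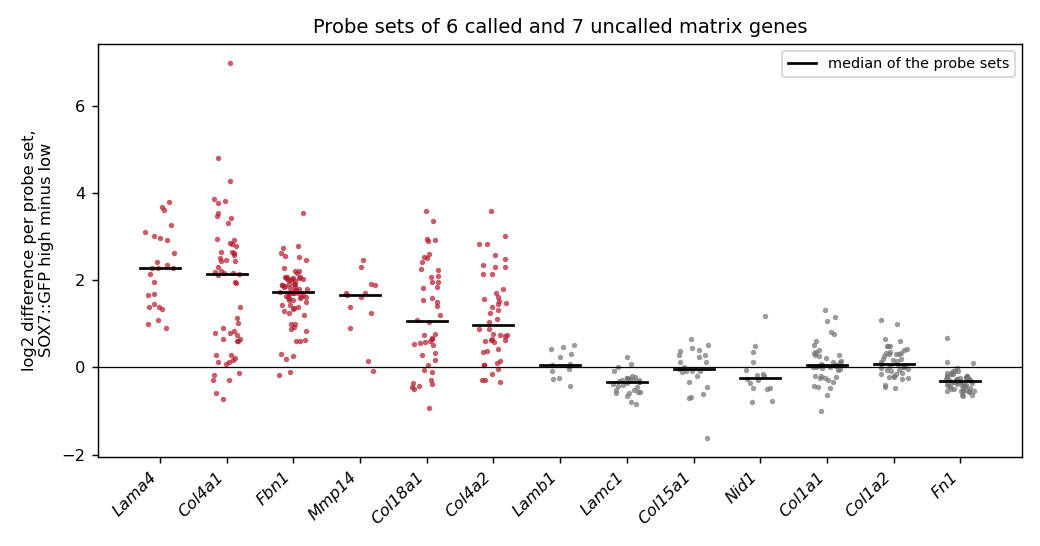
Log2 difference (SOX7::GFP high minus low) of each probe set kept, with the median as a black line, for the 6 called genes in red and for 7 uncalled matrix genes in grey. Medians of the called genes run from 0.96 to 2.27, those of the 7 others from -0.34 to 0.07. The probe sets of *Col4a1*, *Col4a2* and *Col18a1* spread from below 0 to above 3.

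Laminins, the cross-shaped trimers that seed the basement membrane, gave no common direction. *Lama4*, which encodes the alpha 4 chain typical of vessel walls, was expressed at 7.31 and 6.14 in SOX7::GFP high cells, against 4.60 and 4.32 in SOX7::GFP low cells. Both SOX7::GFP low values lay under the filter value, so that background limits the size of the change, and the SOX7::GFP high arrays differed from each other by 1.17. The log2 fold change was 2.26 (SE 0.41, limma adjusted p = 0.0403), and it ran from 1.68 without SOX7::GFP high replicate 1 to 2.85 without SOX7::GFP high replicate 2. All 25 of its probe sets kept were higher in SOX7::GFP high cells, although only 5 reached the filter value on all 4 arrays, where the log2 fold change was 1.46 and not called (limma adjusted p = 0.0565). With no filter it was 1.95 and not called (limma adjusted p = 0.0605).

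The chains that join the alpha 4 chain in a trimer did not pass. *Lamb1* had 5.87 and 6.17 in SOX7::GFP high cells and 6.05 and 5.81 in SOX7::GFP low cells, a difference of 0.08 with a 95% interval from -0.39 to 0.56. *Lamc1*, the gamma 1 chain of most laminins, had 7.37 and 7.54 in SOX7::GFP high cells and 7.73 and 7.89 in SOX7::GFP low cells. For *Lamc1* the SOX7::GFP high arrays lay below the SOX7::GFP low arrays, with a log2 fold change of -0.35 (95% interval from -0.75 to 0.04, adjusted p = 0.253 from limma). Both intervals lie below a 2-fold rise.

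*Col18a1* encodes the basement membrane collagen whose C-terminal fragment is endostatin. It was expressed at 7.12 and 6.82 in SOX7::GFP high cells, against 5.83 and 5.74 in SOX7::GFP low cells. The arrays of a group differed by at most 0.29, and the log2 fold change was 1.18 (SE 0.17, limma adjusted p = 0.0211). Of its 46 probe sets kept 37 were higher, 31 of them with no overlap. Over the 29 that reached the filter value on all 4 arrays the log2 fold change was 1.30 (limma adjusted p = 0.00618). Its closest relative *Col15a1* had 6.20 and 6.12 in SOX7::GFP high cells and 6.38 and 6.06 in SOX7::GFP low cells, a difference of -0.06 (95% interval from -0.50 to 0.38). *Nid1*, which links laminin to collagen IV, had 5.73 and 5.81 in SOX7::GFP high cells, between the SOX7::GFP low values of 6.50 and 5.34. Of the 8 basement membrane genes 4 were thus called higher and 0 lower, beside 3.61% and 3.24% of all genes. With only probe sets above the filter value on all 4 arrays, *Col18a1* alone of these 4 kept its call.

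*Fbn1* encodes fibrillin 1, the backbone of microfibrils. It was expressed at 7.34 and 8.15 in SOX7::GFP high cells, against 6.29 and 5.90 in SOX7::GFP low cells. The groups did not overlap, and the SOX7::GFP high arrays differed by 0.81. The log2 fold change was 1.64 (SE 0.32, limma adjusted p = 0.0488), and 70 of its 72 probe sets kept were higher, 59 of them by at least 2-fold. Among other fits, its call was lost with a further quantile normalization (limma adjusted p = 0.0547) and with the median of probe sets (limma adjusted p = 0.0514). It was also lost with replicate number as a block (limma adjusted p = 0.0714) and with the methods' t-test (adjusted p = 0.297). The log2 fold change stayed between 1.24 and 2.05 in all fits run, and fits with 1 array left out gave both ends of that range. *Mmp14* encodes a membrane-bound protease that cuts collagen and activates the gelatinase of *Mmp2*. It was expressed at 6.55 and 6.36 in SOX7::GFP high cells, against 5.11 and 4.90 in SOX7::GFP low cells. Its arrays differed by at most 0.21 within a group, and the log2 fold change was 1.45 (SE 0.16, limma adjusted p = 0.0120). SOX7::GFP low replicate 2 lay under the filter value of 5.04, so that background limits the size of the change. Only 5 of its 13 probe sets kept reached that value on all 4 arrays. Over these the log2 fold change of *Mmp14* was 1.13 and still called (limma adjusted p = 0.0138). *Mmp2* itself had 6.25 and 6.06 in SOX7::GFP high cells, between the SOX7::GFP low values of 6.63 and 5.49.

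The other elastic fibre genes did not pass. *Fbn2*, the second fibrillin gene, ranged from 5.45 to 5.67 over the 4 arrays, *Fbln1* from 6.05 to 6.29 and *Eln*, the elastin gene, from 6.44 to 6.95. *Fbln2*, which like *Fbln1* encodes a fibulin of basement membranes and elastic fibres, had 6.39 and 6.16 in SOX7::GFP high cells, between the SOX7::GFP low values of 6.71 and 5.51.

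Marker lists of other cell types were called in both directions, beside 3.61% higher and 3.24% lower among all genes. Of 14 measured endothelial markers 5 were called higher in SOX7::GFP high cells (*Pecam1*, *Cdh5*, *Tek*, *Tie1* and *Esam*) and 2 lower (*Kdr* and *Erg*), with a median log2 fold change of 0.01 and a mean over the list of 6.93 and 7.06 in SOX7::GFP high cells and 6.43 and 6.41 in SOX7::GFP low cells. Of 13 megakaryocyte markers 5 were called higher and 0 lower, with means of 6.77 and 7.09 in SOX7::GFP high cells and 5.69 and 5.93 in SOX7::GFP low cells. Of 7 mast cell markers 2 were called higher, with means of 7.95 and 7.25 in SOX7::GFP high cells and 6.23 and 6.04 in SOX7::GFP low cells. The endothelial marker *Cldn5* was dim. Of 13 genes in a list of stromal contractile genes 3 were called higher (*Cavin1*, *Cnn2* and *Tpm1*, at 4.30-fold, 2.62-fold and 2.05-fold) and 0 lower. *Cavin1*, like *Cav1* and *Cav2* in that list, is a gene of caveolae, small pits of the cell membrane, and not a contractile gene. In the other direction 8 of 8 B-cell markers were called lower, with means of 5.51 and 6.45 in SOX7::GFP high cells and 10.4 and 10.1 in SOX7::GFP low cells. Of 8 neutrophil markers 4 were called lower and 0 higher, with a median log2 fold change of -3.01. The part of these lists in the matrix values was not tested.

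The 2 SOX7::GFP low arrays differed in matrix genes. The mean over all 41 was 6.61 and 6.52 on SOX7::GFP high replicates 1 and 2, and 6.61 and 5.96 on SOX7::GFP low replicates 1 and 2. Over the 35 that were not called, whose small difference between groups follows in part from that choice, it was 6.54 and 6.45 on SOX7::GFP high replicates 1 and 2, and 6.79 and 6.09 on SOX7::GFP low replicates 1 and 2. SOX7::GFP low replicate 1 was at least 2-fold above SOX7::GFP low replicate 2 for 11 of the 41 measured genes (26.8%), against 2.04% of all genes, and the opposite held for 0, against 1.09%. It was above by any amount for 37 of the 41, against 63.8% of all genes. For 21 of the 41 (51.2%) SOX7::GFP low replicate 1 lay above both SOX7::GFP high arrays and SOX7::GFP low replicate 2 below both, as for 8.66% of all genes. With 1 array on each side these gaps have no test. They set the width of the intervals, since a gene whose SOX7::GFP low arrays lie on both sides of the SOX7::GFP high arrays cannot be called in either direction. The median log2 fold change over the members was 0.53 with SOX7::GFP low replicate 1 left out and -0.25 with SOX7::GFP low replicate 2 left out.

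**Figure D3:**
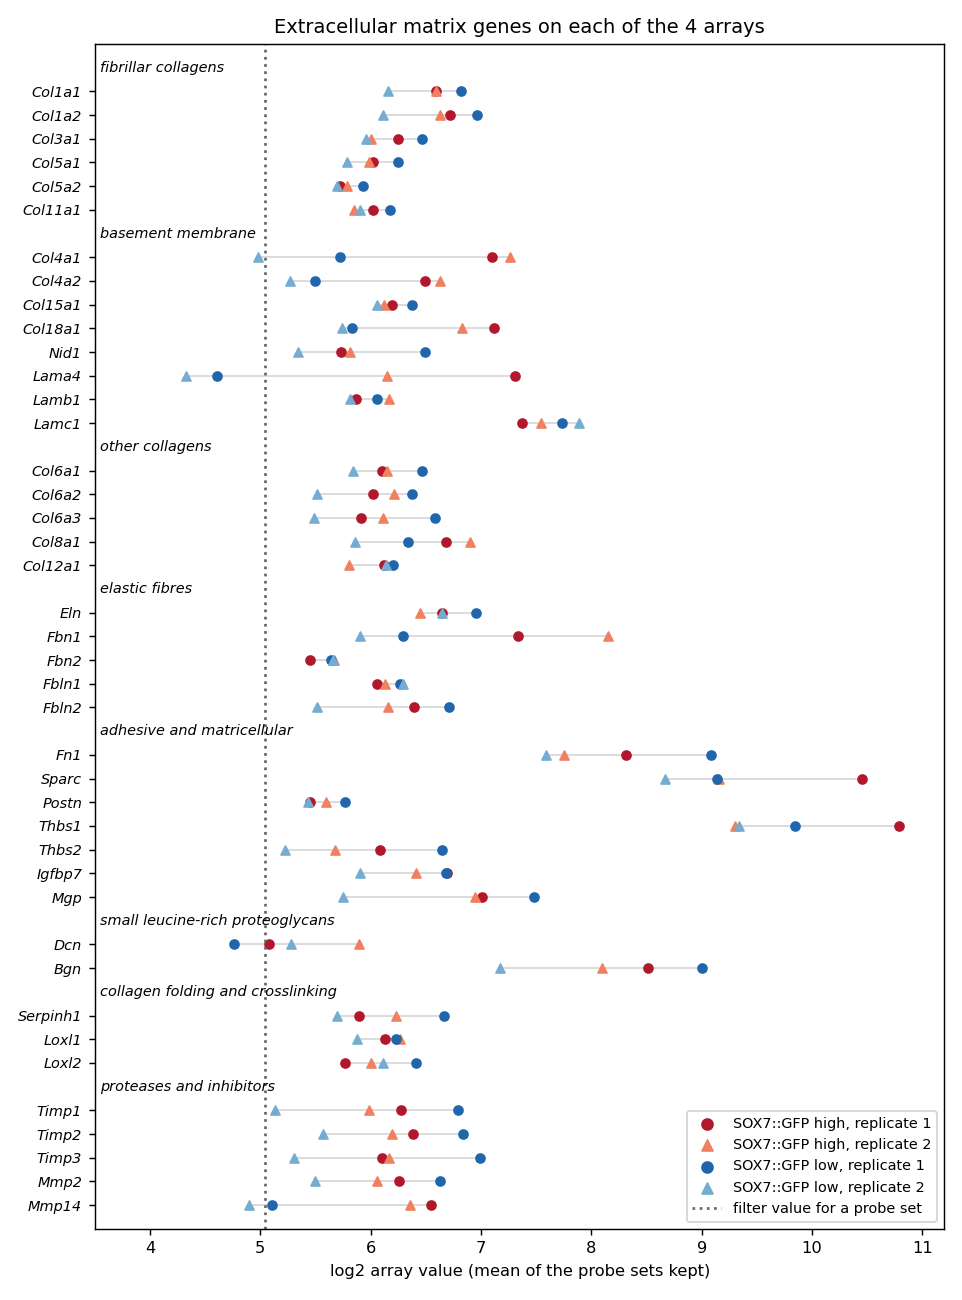
Log2 array values of the 41 measured matrix genes by role, with 1 point per array (red SOX7::GFP high, blue SOX7::GFP low, circles replicate 1, triangles replicate 2) and the filter value of 5.04 dotted. For *Col4a1*, *Col4a2*, *Col18a1*, *Lama4*, *Fbn1* and *Mmp14* both red points lie right of both blue ones. For *Bgn*, *Mgp*, *Fn1* and the 3 *Timp* genes the blue circle lies right of both red points and the blue triangle left of them.

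*Bgn*, which encodes the proteoglycan biglycan, had the widest such gap. It was expressed at 8.51 and 8.10 in SOX7::GFP high cells, between 9.01 on SOX7::GFP low replicate 1 and 7.18 on SOX7::GFP low replicate 2. *Mgp*, whose product keeps cartilage and vessel walls free of mineral, had 7.01 and 6.95 in SOX7::GFP high cells, between SOX7::GFP low values of 7.48 and 5.75. *Timp3*, the matrix-bound inhibitor of metalloproteases, had 6.10 and 6.16 in SOX7::GFP high cells, between SOX7::GFP low values of 6.99 and 5.30. In each of these genes the SOX7::GFP high arrays differed by at most 0.42 and the SOX7::GFP low arrays by 1.69 to 1.83. Their 95% intervals reached from -1.40 to 1.83 for *Bgn*, from -1.14 to 1.86 for *Mgp* and from -1.48 to 1.45 for *Timp3*, so that a 2-fold change either way was not detectable. The sign of these fold changes depended on the SOX7::GFP low array used, as did that of *Fn1*.

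*Fn1* encodes fibronectin, the adhesive glycoprotein on which collagen fibres assemble. It had 8.31 and 7.75 in SOX7::GFP high cells, between SOX7::GFP low values of 9.09 and 7.59. All 56 of its probe sets kept were higher on SOX7::GFP low replicate 1 than on replicate 2, 53 of them by at least 2-fold. The other genes with a gap of at least 1 log2 unit in the same direction were the inhibitor genes *Timp1* (1.66) and *Timp2* (1.27), the thrombospondin gene *Thbs2* (1.43), *Fbln2* (1.20), *Nid1* (1.16), *Mmp2* (1.14) and the collagen VI gene *Col6a3* (1.10).

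**Figure D4:**
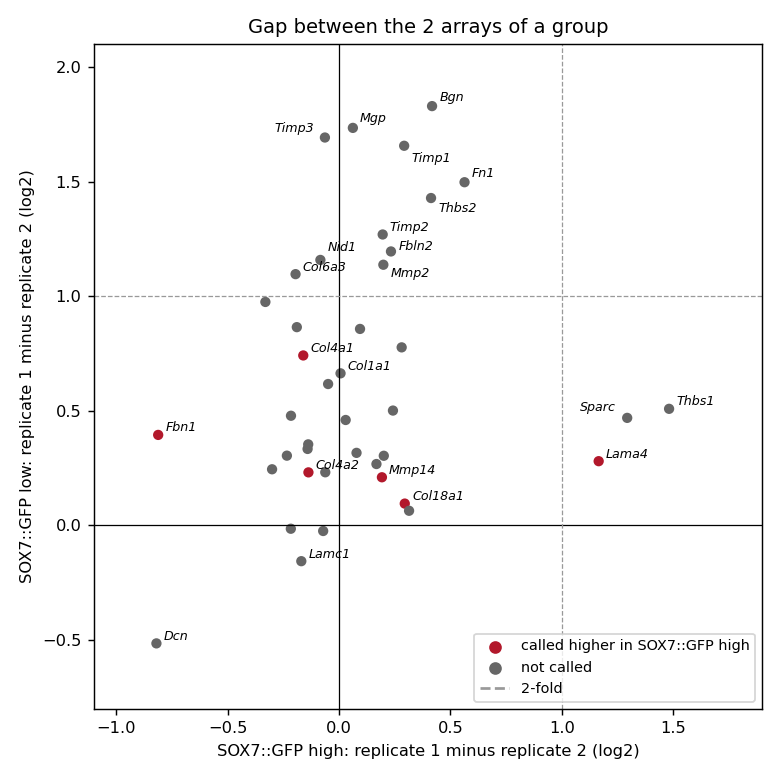
Difference between replicates 1 and 2 (log2) in SOX7::GFP high cells (x axis) and SOX7::GFP low cells (y axis) for each of the 41 measured matrix genes, with the 6 called genes in red and dashed lines at 2-fold. Of the 41 genes 11 lie above the dashed line for SOX7::GFP low cells and 3, *Thbs1*, *Sparc* and *Lama4*, right of that for SOX7::GFP high cells.

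The fibrillar collagens, the main protein of tendon, skin and fibrosis, had a median gap of 0.48 between SOX7::GFP low replicates 1 and 2. This median was 0.48 for all 41 members and 0.09 for all genes, while 0 of the 6 fibrillar genes reached a 2-fold gap. *Col1a1* and *Col1a2*, the chains of type I collagen, had 6.60 and 6.59 and 6.72 and 6.63 in SOX7::GFP high cells. On SOX7::GFP low replicates 1 and 2 they had 6.82 and 6.16, and 6.96 and 6.11. Their log2 fold changes were 0.11 (95% interval from -0.55 to 0.76) and 0.14 (95% interval from -0.67 to 0.94). *Col3a1* and *Col5a1* lay between 5.79 and 6.46 on all 4 arrays, and *Col5a2* and *Col11a1* between 5.69 and 6.17, not far above the filter value. For all 6 fibrillar genes SOX7::GFP low replicate 1 gave the highest of the 4 values, as it did for 25 of the 41 members and for 29.6% of all genes. Of the collagen VI genes *Col6a1* and *Col6a2*, for the beaded microfibrils around cells, had gaps of 0.62 and 0.86 between the SOX7::GFP low arrays. *Col12a1*, of a collagen that sits on fibrils, ranged from 5.80 to 6.20.

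*Col8a1*, a short-chain collagen of vessel walls, had 6.68 and 6.90 in SOX7::GFP high cells, against 6.34 and 5.86 in SOX7::GFP low cells. The groups did not overlap, but its log2 fold change of 0.69 (95% interval from 0.13 to 1.25) rested on 4 probe sets and did not pass (limma adjusted p = 0.142). Of the 41 genes the SOX7::GFP high arrays lay above both SOX7::GFP low arrays for 8 and below both for 5, against 32.2% and 22.2% of all genes.

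The matricellular genes *Sparc* and *Thbs1*, whose products modulate cell contact with the matrix and are stored in platelets, differed most between the SOX7::GFP high arrays. *Sparc* had 10.45 on SOX7::GFP high replicate 1 and 9.16 on replicate 2, against 9.14 and 8.67 in SOX7::GFP low cells. Its rise of 0.90 on the log2 scale (SE 0.46, limma adjusted p = 0.330) was not called, and it was 1.55 without SOX7::GFP high replicate 2 and 0.25 without replicate 1. *Thbs1* had 10.79 and 9.31 in SOX7::GFP high cells, against 9.85 and 9.34 in SOX7::GFP low cells. Its 27 probe sets were all higher on replicate 1 than on replicate 2 in SOX7::GFP low cells, and its log2 fold change of 0.45 (limma adjusted p = 0.675) was -0.29 without SOX7::GFP high replicate 1. Replicate 1 was at least 2-fold above replicate 2 in SOX7::GFP high cells for 3 of the 41 genes (*Thbs1*, *Sparc* and *Lama4*), against 1.53% of all genes, and the opposite held for 0, against 1.32%. It was above by any amount for 22 of the 41, against 49.6% of all genes.

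*Igfbp7*, a secreted growth factor binder of vessels, had 6.69 and 6.41 in SOX7::GFP high cells and 6.68 and 5.91 in SOX7::GFP low cells. *Postn*, the periostin gene of fibroblasts, kept only 3 of its 33 probe sets and ranged from 5.43 to 5.77. *Dcn*, the decorin gene, kept 1 of 19, with 5.08 and 5.90 in SOX7::GFP high cells and 4.76 and 5.27 in SOX7::GFP low cells, and its fold change of 0.47 did not pass (limma adjusted p = 0.487). Values this near the filter value give little information on level. *Serpinh1*, the collagen chaperone gene, had 5.89 and 6.23 in SOX7::GFP high cells, between SOX7::GFP low values of 6.67 and 5.69. The crosslinking enzyme genes *Loxl1* and *Loxl2* ranged from 5.88 to 6.27 and from 5.76 to 6.41. *Loxl2* gave the lowest log2 fold change of all members, -0.38 (limma adjusted p = 0.298), with both SOX7::GFP high arrays below both SOX7::GFP low arrays.

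Among lists of stromal cells the fibroblast, fat cell and contractile lists were higher on SOX7::GFP low replicate 1 than on replicate 2, as most matrix genes were, and the osteoblast list was not. Over all genes 63.8% were higher on SOX7::GFP low replicate 1 than on replicate 2, and 2.04% by at least 2-fold. Of 7 osteoblast genes 4 were higher on replicate 1 of that pair, 0 of them by 2-fold, with means of 7.20 and 7.36 in SOX7::GFP high cells and 7.26 and 7.32 in SOX7::GFP low cells. Between the groups 1 of the 7 was called higher and 1 lower, beside 3.61% and 3.24% of all genes. The log2 fold changes of the osteoblast list ran from -3.37 to 3.36, so that its means hide changes in both directions. The mean of 23 measured stromal fibroblast markers was 6.08 and 5.95 in SOX7::GFP high cells and 6.15 and 5.63 on SOX7::GFP low replicates 1 and 2, with 21 of the 23 higher on replicate 1 of the SOX7::GFP low pair. Of the 23, 4 were higher there by at least 2-fold, and the median gap of that pair was 0.39. *Cxcl12*, the chemokine gene of marrow stroma, had 8.14 and 7.50 in SOX7::GFP high cells, between SOX7::GFP low values of 8.27 and 6.69. *Prrx1*, a mesenchymal transcription factor gene, had 6.38 and 5.97 in SOX7::GFP high cells, between SOX7::GFP low values of 6.54 and 4.95. The receptor gene *Pdgfra* lay between 4.95 and 5.45 on all arrays, and *Fap* and *Meox2* were dim. Of the fibroblast markers only *Nt5e*, the CD73 gene, was called, 2.06 higher on the log2 scale in SOX7::GFP high cells (limma adjusted p = 0.00870).

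The gap was wider in the fat cell list. The mean of 9 adipocyte genes was 6.56 and 6.33 in SOX7::GFP high cells and 7.28 and 5.99 on SOX7::GFP low replicates 1 and 2. Of the 9, 5 were at least 2-fold higher on replicate 1 of that pair, against 2.04% of all genes. Between the groups 0 of the 9 were called higher and 1 lower (*Cd36*, log2 fold change -2.81), beside 3.61% and 3.24% of all genes. *Fabp4*, the fatty acid carrier gene, had 8.24 and 8.08 in SOX7::GFP high cells, between SOX7::GFP low values of 8.73 and 6.80. Of the 13 genes in the contractile list 5 were at least 2-fold higher on SOX7::GFP low replicate 1 than on replicate 2, against 2.04% of all genes. The mean of the 13 was 6.83 and 6.64 in SOX7::GFP high cells and 6.75 and 5.97 in SOX7::GFP low cells. Macrophage markers were higher on SOX7::GFP low replicate 1 for 10 of 11, against 63.8% of all genes. Their means were 6.26 and 5.93 in SOX7::GFP high cells and 6.65 and 6.22 in SOX7::GFP low cells. Erythroid markers differed the other way, as 0 of 5 were higher on SOX7::GFP low replicate 1. At least 2-fold higher on SOX7::GFP low replicate 2 were 2 of the 5, against 1.09% of all genes. The erythroid means were 6.63 and 7.06 in SOX7::GFP high cells and 5.82 and 7.16 in SOX7::GFP low cells. The pan-blood and reference genes had median differences of -0.05 and -0.00239 between the SOX7::GFP low arrays. The part of stromal RNA, of macrophages, of erythroid cells or of anything else that differs between these arrays in the matrix values was not tested, and no array of OP9 cells alone was analysed here.

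**Figure D5:**
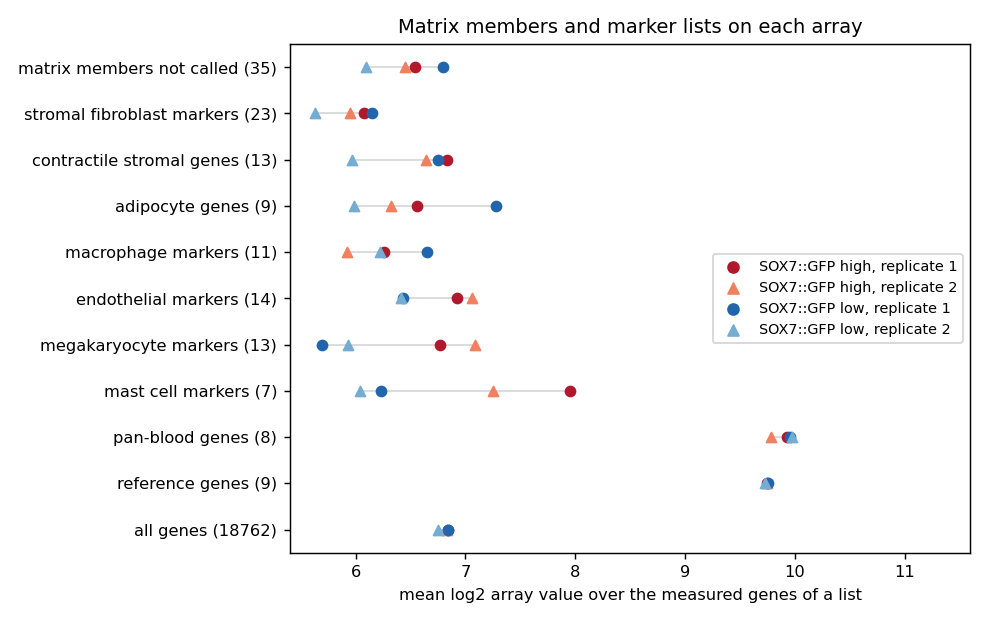
Mean log2 array value on each array (red SOX7::GFP high, blue SOX7::GFP low, circles replicate 1, triangles replicate 2) for the uncalled matrix genes, marker lists, reference genes and all genes, with the number of measured genes in brackets. The blue circle and blue triangle lie at 6.79 and 6.09 for the uncalled matrix genes and at 7.28 and 5.99 for the adipocyte genes, and nearly coincide for the reference genes.

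With group and replicate number fitted together, replicate 2 lay below replicate 1 for 35 of the 41 matrix genes, with a median of -0.29, against -0.05 over all genes. None of the 41 and none of the 18762 genes was called by limma for replicate number, with an unadjusted p under 0.05 for 6 of the 41 and 1230 of all genes. The replicate differences of the SOX7::GFP high and SOX7::GFP low pairs correlated across the 41 genes at r = 0.21 (genes are not independent replicates), and across all genes at r = 0.10.

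Other genes of the matrix, from lists of its remaining parts, gave few calls, beside the 3.61% higher and 3.24% lower among all genes. Of 29 other collagen genes 1 was higher and 0 lower, namely *Col14a1*, for a fibril-associated collagen, at 6.94 and 7.62 in SOX7::GFP high cells, against 4.17 and 4.12 in SOX7::GFP low cells (log2 fold change 3.13, adjusted p = 0.00666 from limma). Of 12 other basement membrane genes 0 were called. At an unadjusted limma p under 0.05, 2 of the 12 were higher and 1 lower, against 2647 and 1839 of all 18762 genes. Of 44 other glycoproteins and proteoglycans *Ltbp1*, which anchors latent TGF-beta to fibrillin, was higher (3.02) and *Tgfbi* lower (-1.86). Of 25 genes of collagen synthesis the hydroxylase genes *P4ha1* (-1.31) and *Plod2* (-1.22) were lower and 0 were higher. Of 34 other proteases and inhibitors *Serpine2* was higher (2.37), and the neutrophil collagenase gene *Mmp8* (-4.06) and *Mmp11* (-3.12) were lower. The 2-fold gap between the SOX7::GFP low arrays was rarer in most of these lists than among the 41 members. Replicate 1 was at least 2-fold above replicate 2 for 0 of the 29, 0 of the 12, 1 of the 25 and 0 of the 34 genes. It was so for 8 of the 44 glycoproteins and proteoglycans, against 2.04% of all genes.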

How the data were processed

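Expression was measured on 4 arrays, and the series matrix was the only table used. The deposited table holds 1236087 probe sets as log2 values, which the authors made by background adjustment and normalization by robust multi-array averaging (RMA, version not given in the sources used here), before their filter on detection. The medians of the arrays were 3.90 to 3.91, within a range of 0.55 to 14.4. The platform annotation gave 1 symbol for 321091 probe sets, and 191615 passed the filter value of 5.04, slightly more than the study's methods kept. Older symbols were updated through GRCm38.p6. Limma 3.58.1 (R 4.3.3) compared the groups over 18762 genes, and a call needed 2-fold and an adjusted p (Benjamini-Hochberg) under 0.05, after being tested on simulated data. Arrays have no read depth, and their number sets the precision. Array values are not compared between genes.

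The members and lists were chosen with earlier results of these data known. All members are named. Values on every array are given at least for those called, the 6 largest uncalled changes, the 4 highest values and the 3 widest gaps between arrays of a group. Called genes of other lists are named for some of these lists only. The uncalled genes *Cxcl12*, *Prrx1*, *Pdgfra* and *Fabp4* were named by no set rule and do not stand for their lists. Alternatives were other filters, medians, a minimum of 3 probe sets, further normalization, other tests, a replicate block and leaving out each array. A filter keeping as many probe sets as the study's methods did was chosen after seeing the data.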

Additional observations from a re-analysis of the deposited data

How the results depend on the processing

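The count of 6 genes called higher was between 4 and 6 under no filter, a stricter filter, a filter on the mean of the arrays, the study's number of probe sets, medians in place of means, at least 3 probe sets a gene, quantile normalization, reference gene centring, limma's trend and robust options, a replicate block (5) and no fold threshold. It was 3 with only probe sets above the filter value on all 4 arrays (*Col18a1*, *Fbn1* and *Mmp14*) and 0 with the methods' t-test, which called 0 of all genes after adjustment and gave 4 members an unadjusted p under 0.05. With 1 array left out it ran from 0 to 2. The count of genes called lower was 0 in each fit. The median log2 fold change of 0.09 ran from -0.25 to 0.53 with 1 array left out. Direction reversed for *Dcn* (-0.00713) and *Loxl2* (0.0543) with no filter and for *Timp3* with a stricter filter (0.12). With 1 array left out it also reversed for *Thbs1* (-0.29 to 1.20), *Mgp* (-0.51 to 1.23), *Bgn* (-0.70 to 1.13), *Fn1* (-1.06 to 0.44) and *Timp3* (-0.86 to 0.83). The cause was not tested.

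The replicate numbers name no shared litter or day, and with 2 pairs they share only a number. The replicate block lost the call of *Fbn1* and changed no other call among the members. The fits without 1 array leave 1 group with a lone array, assumed to vary like the other group. Dim probe sets limit the size of changes near the filter value.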

Other observations

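Of 34 measured genes of matrix receptors 3 were called higher and 4 lower in SOX7::GFP high cells, beside 3.61% higher and 3.24% lower among all genes. The higher ones were the collagen-binding integrin gene *Itga2* (2.38), the laminin-binding integrin gene *Itga6* (1.19) and *Itgb3* (1.80). The integrin gene *Itga4* (-1.09), the scavenger receptor gene *Cd36* (-2.81) and the syndecan genes *Sdc3* (-1.68) and *Sdc4* (-1.47) were the lower ones. *Itga6* had 8.54 and 8.48 in SOX7::GFP high cells, against 7.29 and 7.34 in SOX7::GFP low cells, with no overlap.

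Of 14 genes of TGF-beta supply and related growth factors *Ltbp1* (3.02) and *Pdgfb* (2.34) were higher in SOX7::GFP high cells, and *Tgfb3* (-2.80) and *Lrrc32* (-1.88), whose product docks latent TGF-beta on the cell surface, were lower, which is 2 of 14 in each direction beside the same 3.61% and 3.24% of all genes. *Pdgfb* had 8.01 and 7.81 in SOX7::GFP high cells, against 5.53 and 5.60 in SOX7::GFP low cells. The values in brackets are log2 fold changes, all with an adjusted p under the threshold in limma.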
